A study of Mus musculus with 15 samples.

Results

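Matrix metalloproteinases (MMPs), ADAMTS proteases and tissue inhibitors of metalloproteinases (TIMPs) were measured along a directed differentiation that starts from mouse induced pluripotent stem cells (iPSC) and aims at smooth muscle cells, and in aortic smooth muscle cells. The members were all probe sets whose Entrez Gene ID maps to a mouse symbol of the form Mmp with a number (and a or b), Adamts with a number, or Timp1 to Timp4. They numbered 46 of 25206 probe sets on the array, with 1 probe set per gene: 23 MMP, 19 ADAMTS and 4 TIMP genes. The 15 samples formed 5 groups of 3. GFP+ primary smooth muscle cells came from the mouse aorta. The cultured groups were undifferentiated iPSC (day 0), Kdr+ mesodermal progenitors (day 5, sorted on Flk-1, a VEGF receptor also named Kdr), and the GFP+ and GFP- sorts of day 13, which the labels call candidate smooth muscle cells. The line and the aortic cells carry Acta2hrGFP, so green fluorescence reports on Acta2, which encodes smooth muscle actin. The labels describe the cultured samples as iPSC of a single reporter line and give no age, sex or pooling for the aortic samples. The design text names biological triplicates without saying whether they were separate cultures or animals, and the p-values measure only the spread between these samples, which may be technical.

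MMPs are zinc-dependent enzymes, secreted or held at the cell surface, that cut collagens, basement membrane and other matrix proteins. ADAMTS proteases are secreted relatives whose thrombospondin repeats bind matrix, and they cut large proteoglycans, trim procollagens or act on microfibrils. TIMPs bind the active site of these enzymes, and TIMP3, which attaches to matrix, also blocks several ADAM and ADAMTS enzymes. In arteries the balance between these enzymes and their inhibitors is known to govern smooth muscle migration, the integrity of the elastic layers and the removal of versican and aggrecan.

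All values below are deposited RMA expression values in log2 units, in which a difference of 1 is 2-fold. They compare samples for 1 gene and not genes with each other. Sample medians lay between 4.08 and 4.29, and across probe sets the correlation of samples of 1 group was 0.977 to 0.995. Precision is limited by the number of arrays, 3 in each group. Detection calls are not part of the data used here, so a low level may be background, and a fold against it depends on the floor of the array. In the check of the sorts, Kdr averaged 9.64 ± 0.0511 at day 5 and 3.24 ± 0.0533 at day 0 (SD, n = 3 each), and Acta2 averaged 11.32 ± 0.129 in GFP+ and 10.67 ± 0.447 in GFP- cells at day 13. Every GFP+ sample lay above the GFP- samples for Acta2, but its difference did not pass the test used below. Of 7 smooth muscle markers, 1 passed as higher in GFP+ than in GFP- cells. The mature smooth muscle myosin gene Myh11 averaged 11.03 in the aortic cells, against 4.64 in day 13 GFP+ cells, which in turn stood against 4.13 at day 5. At day 13, the deviations of GFP+ and GFP- samples of equal number from their group means correlated at 0.597, 0.403 and 0.397 (numbers 3, 5 and 6), and number 3 of one sort correlated with numbers 5 and 6 of the other at -0.5 to -0.419. Number 5 of one sort and number 6 of the other also correlated, at 0.278 and 0.345. The samples numbered 3 thus stood apart, and the calls that changed when both were left out are given with the genes below.

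Stretches of promoter sequence of some members are shown first. RefSeq promoter windows of 300 bases (GRCm38.p6, 250 before to 50 after the annotated start) matched 32 of the 46 genes. The other 14, Mmp2 and Mmp9 among them, had no window. The matched genes had 35 windows, and a gene was counted for a motif when any of its windows held it. The 10 genes Mmp13, Mmp12, Mmp1b, Mmp3, Mmp1a, Mmp10, Mmp8, Mmp27, Mmp20 and Mmp7 follow each other on the chromosome with 0 other protein-coding genes between them. In these 10 the motif TGANTCA, a site known to bind AP-1 (Fos and Jun dimers), was present in 8 genes and the TATA motif TATAAA in 9. In the other 22 genes with a window, TGANTCA was present in 0 and TATAAA in 2. The GC box GGGCGG showed the opposite division, with 0 of the 10 cluster genes and 18 of the other 22. Over all 32851 promoter windows, read on both strands, TGANTCA was present in 7.81%, TATAAA in 13.6%, GGGCGG in 35.7% and the CArG box of serum response factor in 1.63%, and 0 member windows held a CArG box. Counted by window in the same way, the 35 member windows held TGANTCA in 22.9%, TATAAA in 31.4% and GGGCGG in 51.4%. The stretches run from base -120 to base 20 of the annotated start, 5′ to 3′ on the strand of the gene, with matches to these motifs on either strand in capitals, so that a GC box of the other strand reads as its complement. A match describes these letters and is not evidence of binding. In the printed Mmp12 window TATAAA lies after the annotated start, at bases 5 to 10, and in Mmp3 it lies at -7 to -2. Of the windows of Mmp12, one that holds TGANTCA was chosen for printing. The first 5 belong to the cluster: Mmp3, Mmp12 and Mmp13 were higher in aortic than in day 13 GFP+ cells, and Mmp10 and Mmp1a were not called in any comparison.
Mmp3 (chr9:7445702-7445841, + strand): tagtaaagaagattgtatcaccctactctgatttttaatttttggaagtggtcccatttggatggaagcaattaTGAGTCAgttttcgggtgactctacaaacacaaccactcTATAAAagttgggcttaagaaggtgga
Mmp12 (chr9:7347254-7347393, + strand): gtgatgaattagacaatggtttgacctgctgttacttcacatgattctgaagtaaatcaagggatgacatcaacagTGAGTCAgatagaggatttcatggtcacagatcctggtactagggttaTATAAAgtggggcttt
Mmp13 (chr9:7272394-7272533, + strand): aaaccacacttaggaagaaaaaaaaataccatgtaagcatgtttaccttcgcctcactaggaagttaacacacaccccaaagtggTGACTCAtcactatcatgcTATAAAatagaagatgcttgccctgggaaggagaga
Mmp10 (chr9:7502222-7502361, + strand): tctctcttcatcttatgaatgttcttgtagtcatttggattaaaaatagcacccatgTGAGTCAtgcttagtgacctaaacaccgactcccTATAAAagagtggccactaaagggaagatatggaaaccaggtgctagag
Mmp1a (chr9:7464021-7464160, + strand): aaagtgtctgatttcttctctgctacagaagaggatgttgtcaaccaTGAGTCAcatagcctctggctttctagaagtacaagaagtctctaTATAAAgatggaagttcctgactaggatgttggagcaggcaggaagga
The next 4 belong to genes that rose at day 13 and lie outside the cluster, and they carry GC boxes in place of TGANTCA.
Mmp14 (chr14:54431478-54431617, + strand): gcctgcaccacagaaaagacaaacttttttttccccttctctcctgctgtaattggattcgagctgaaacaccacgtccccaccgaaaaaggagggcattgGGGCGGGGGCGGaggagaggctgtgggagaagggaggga
Adamts1 (chr16:85803094-85803233, - strand): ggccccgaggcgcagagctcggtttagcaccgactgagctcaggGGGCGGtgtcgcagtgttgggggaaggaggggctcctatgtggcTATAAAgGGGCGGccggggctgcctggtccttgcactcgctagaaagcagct
Timp1 (chrX:20870046-20870185, + strand): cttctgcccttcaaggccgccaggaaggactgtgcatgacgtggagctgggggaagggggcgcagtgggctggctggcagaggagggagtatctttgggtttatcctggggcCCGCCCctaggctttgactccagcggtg
Timp3 (chr10:86300292-86300431, + strand): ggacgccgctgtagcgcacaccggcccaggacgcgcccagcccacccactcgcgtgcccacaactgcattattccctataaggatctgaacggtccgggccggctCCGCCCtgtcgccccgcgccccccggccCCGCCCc

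Across the 5 groups, 36 of the 46 genes passed limma's test (adjusted p under 0.05 over all 25206 probe sets) in 1 or more of the 5 comparisons, and the other 10 in none. The 10 were 8 MMP and 2 ADAMTS genes, and their group means spanned only 0.12 to 0.42 from the lowest to the highest group. In 21 genes the group means spanned 2 or more. The highest mean lay in the aortic cells for 22 genes, at day 0 for 4, at day 5 for 2, in day 13 GFP+ cells for 15 and in day 13 GFP- cells for 3. These counts over the 5 groups were not made for all probe sets, so they do not set these families apart from other genes. At day 5 against day 0, 10 members rose and 6 fell, where 14.9% of all probe sets rose and 13.9% fell and 28.8% were called in all (median log2 change of the members -0.01, of all probe sets -0.01). In day 13 GFP+ cells against day 5, 24 rose and 1 fell, where 14.3% of all probe sets rose, 16.9% fell and 31.2% were called in all (medians 0.58 and -0.00). In day 13 GFP- cells against the same day 5 samples, 18 rose and 1 fell, where 12% rose, 13.9% fell and 26% were called in all (medians 0.37 and -0.03). GFP+ against GFP- cells of day 13 had 10 members higher and 1 lower, where 2.02% of all probe sets were higher, 2.52% lower and 4.53% called in all (medians 0.23 and 0.01). In aortic against day 13 GFP+ cells, 13 were higher and 14 lower, where 17.7% were higher, 19.5% lower and 37.2% called in all (medians 0.05 and 0.07). Members were thus called higher far more often than lower at day 13, and in near equal numbers in the aorta. Among the 23 members with a mean level above that of the median probe set, however, 7 were higher and 12 lower in aortic than in GFP+ cells when only such probe sets were tested. By family, 13 of 19 ADAMTS genes (median 1.06), 8 of 23 MMP genes (median 0.20) and 3 of 4 TIMP genes (median 3.03) rose in GFP+ cells against day 5. In aortic against GFP+ cells 9 ADAMTS genes were lower and 5 higher (median -0.21), while 4 MMP genes were lower and 6 higher (median 0.06). The map of log2 changes shows these counts gene by gene.

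**Figure D1:**
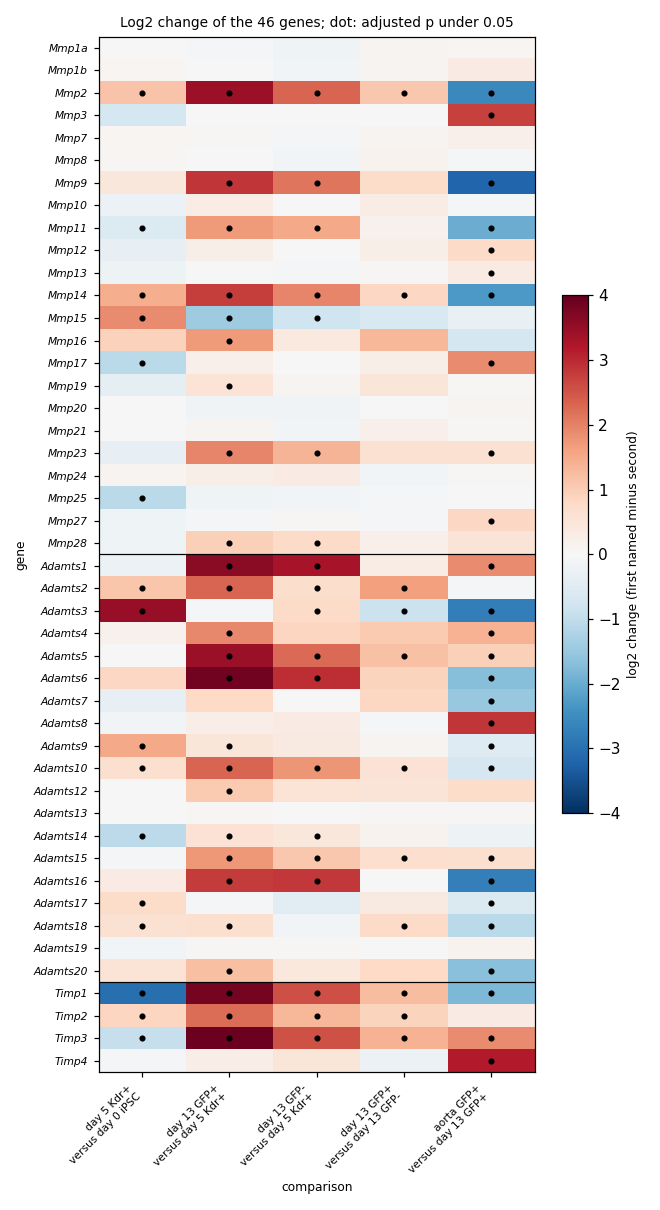
Log2 change (colour, first-named group minus second) of the 46 genes (rows, grouped as MMP, ADAMTS and TIMP) in the 5 comparisons (columns), with a dot where limma's adjusted p was under 0.05. The second column holds 24 red and 1 blue dotted cells, and the last column holds 13 red and 14 blue ones.

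TIMP transcripts differed more between the 5 groups than most members, with group means that spanned 3.41 or more, for Timp4 only through the aortic cells. At day 13 Timp1, Timp2 and Timp3 rose in both sorts and were higher in GFP+ than in GFP- cells, while Timp4 was called only in the comparison of aortic with GFP+ cells. Timp3 (Entrez Gene 21859), the matrix-bound inhibitor, stood at 6.15, 5.72 and 5.25 at day 0, at 4.27, 5.13 and 4.96 at day 5, at 9.08, 8.63 and 8.46 in day 13 GFP+ cells and at 7.13, 7.45 and 7.43 in GFP- cells. The day 5 samples all lay below day 0, and the day 13 sorts did not overlap with day 5 or with each other. The log2 change was -0.92 at day 5 against day 0 (SE 0.237, limma adjusted p = 0.00738), 3.93 in GFP+ against day 5 cells (15.3-fold, adjusted p = 4.99e-09) and 2.55 in GFP- against day 5 cells (adjusted p = 8.95e-07). Aortic cells held 10.58, 10.62 and 10.61, 3.69-fold above day 13 GFP+ cells (log2 change 1.88, SE 0.237, adjusted p = 1.05e-05). These 3 aortic values agree within 0.04 and lie above every cultured sample.

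Timp1 (Entrez Gene 21857), a soluble inhibitor also known as a growth factor-inducible gene, showed the deepest dip at day 5. It was 6.61, 6.57 and 6.26 at day 0, 3.91, 3.42 and 3.05 at day 5, 7.66, 7.03 and 7.19 in GFP+ cells and 6.01, 6.03 and 6.11 in GFP- cells of day 13. The day 5 level lay 8.12-fold below day 0 (log2 change -3.02, SE 0.278, limma adjusted p = 4.76e-07), and no sample of day 5 came near any other cultured group. GFP+ cells rose 14.3-fold against day 5 (log2 change 3.83, adjusted p = 3.18e-08), and GFP- cells rose by 2.59 (adjusted p = 3.58e-06). All GFP+ samples lay above day 0, and all GFP- samples below it. In the aortic cells Timp1 was 4.79, 6.11 and 5.58, lower than in day 13 GFP+ cells by -1.80 (SE 0.278, adjusted p = 8.3e-05). Aortic sample 1, the lowest of the 3, was also the lowest for the fibroblast markers given below.

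Timp2 (Entrez Gene 21858), which also takes part in the activation of pro-MMP2 by MMP14 at the cell surface, rose at each step of the culture. It was 7.09, 6.55 and 6.51 at day 0, 7.49, 7.62 and 7.61 at day 5, 9.90, 9.76 and 9.75 in GFP+ cells and 8.83, 8.87 and 9.03 in GFP- cells. Every group lay apart from the one before it. The log2 change was 0.85 at day 5 against day 0 (SE 0.147, limma adjusted p = 0.000313), 2.23 in GFP+ against day 5 cells (adjusted p = 1.18e-08) and 1.34 in GFP- against day 5 cells (adjusted p = 4.49e-06). Aortic cells, at 10.17, 10.26 and 9.97, lay 0.33 above day 13 GFP+ cells, which did not pass the test (adjusted p = 0.0937) but passed after cyclic loess scaling of the arrays (log2 change 0.78, adjusted p = 0.000701).

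Timp4 (Entrez Gene 110595), the family member known for expression in heart and vessel wall, was 6.94, 5.54 and 6.26 in aortic cells, against 3.24, 2.92 and 3.10 in day 13 GFP+ cells. The difference was 8.92-fold (log2 change 3.16, SE 0.257, limma adjusted p = 8.42e-08), and the highest cultured sample of any stage was 3.67. No comparison within the culture was called for Timp4, although with sample number as a block over the 12 cultured samples the change in GFP- against day 5 cells was called (0.49, adjusted p = 0.0408). Timp1, Timp3 and Timp4 each lie within a synapsin gene in the GRCm38.p6 annotation (Syn1, Syn3 and Syn2). At day 5 against day 0, Syn1 (-1.57, adjusted p = 8.38e-06) and Syn3 (-0.56, adjusted p = 0.00425) fell as Timp1 and Timp3 did, and no synapsin gene was called at day 13. Syn1 changed by 0.28 (adjusted p = 0.325) and Syn3 by 0.02 (adjusted p = 0.957) in GFP+ against day 5 cells. In aortic against GFP+ cells, Syn3 (1.23, limma adjusted p = 2.14e-06) and Syn2 (0.77, adjusted p = 0.00078) were higher.

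**Figure D2:**
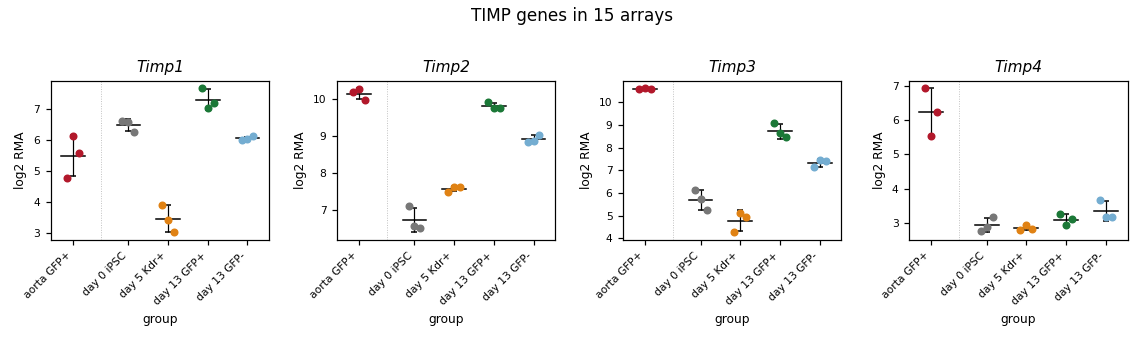
Log2 RMA value of the 4 TIMP genes (one panel each) in the 15 samples, with a point per sample, a bar at the group mean and whiskers of 1 SD (n = 3), and the aortic group left of the dotted line. Timp1 dips to 3.05 to 3.91 at day 5, and Timp4 is at 5.54 or above in aortic samples and at 3.67 or below elsewhere.

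The gelatinase Mmp2 and its activator Mmp14 were the metalloproteinases with the clearest course through the culture. Mmp2 (Entrez Gene 17390), which cuts denatured collagen and basement membrane, was 6.18, 6.21 and 6.38 at day 0, 7.17, 7.52 and 7.47 at day 5, 10.72, 10.76 and 10.90 in GFP+ cells and 9.37, 9.80 and 10.01 in GFP- cells of day 13. It rose by 1.13 at day 5 against day 0 (SE 0.205, limma adjusted p = 0.000486). GFP+ cells lay 10.6-fold above day 5 (log2 change 3.41, adjusted p = 4.92e-09) and GFP- cells 5.06-fold above it (2.34, adjusted p = 4.87e-07). In aortic cells Mmp2 was 7.68, 8.57 and 8.36, 6.03-fold below day 13 GFP+ cells (log2 change -2.59, adjusted p = 6.21e-08), and no aortic sample reached the lowest GFP- sample. Mmp14 (Entrez Gene 17387), the membrane-type enzyme that activates pro-MMP2, followed the same order of groups. It was 6.25, 5.88 and 5.82 at day 0, 7.49, 7.43 and 7.37 at day 5, 10.16, 10.13 and 10.34 in GFP+ cells and 9.33, 9.30 and 9.49 in GFP- cells, and the groups did not overlap. The log2 change was 1.44 at day 5 (adjusted p = 6.75e-07), 2.78 in GFP+ against day 5 cells (adjusted p = 6.74e-10) and 1.94 in GFP- against day 5 cells (adjusted p = 5.02e-08). Aortic cells, at 7.78, 8.12 and 7.81, lay 4.95-fold below GFP+ cells (log2 change -2.31, SE 0.137, adjusted p = 2.34e-09).

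Mmp9 (Entrez Gene 17395), the second gelatinase, was called at day 13 and, in the fit of all samples, not earlier. Its values were 3.60, 3.78 and 4.0 at day 0, 4.09, 4.49 and 4.18 at day 5, 8.10, 6.70 and 6.51 in GFP+ cells and 6.69, 6.33 and 6.12 in GFP- cells. Every day 5 sample lay above day 0. That change of 0.46 was called higher in a limma fit of these 2 groups alone (SE 0.146, adjusted p = 0.0407), against adjusted p = 0.322 in the fit of all samples. GFP+ sample 3 stood 1.40 above the next GFP+ sample, and without both samples numbered 3 the change in GFP+ against day 5 cells was 2.35 (adjusted p = 7.59e-08). Against day 5, Mmp9 rose 7.22-fold in GFP+ cells (log2 change 2.85, SE 0.303, limma adjusted p = 1.86e-06) and 4.37-fold in GFP- cells (2.13, adjusted p = 6.05e-05). In the aortic cells it was 3.93, 3.79 and 4.06, 9.06-fold below day 13 GFP+ cells (log2 change -3.18, adjusted p = 5.21e-07) and within the range of the day 0 and day 5 samples. Mmp9 is known from neutrophils, macrophages and osteoclasts. Of 7 measured macrophage and leukocyte markers (of 8 listed), 2 rose in GFP+ and 1 in GFP- against day 5 cells, with a summed linear level of 176 to 195 in GFP+, 184 to 205 in GFP- and 105 to 114 in day 5 samples, and of 5 neutrophil markers 0 rose in either (summed levels 31 to 34, 28 to 32 and 32 to 33). Ptprc, the pan-leukocyte gene, was 1.93, 1.86 and 1.74 in GFP+ and 1.99, 2.01 and 2.17 in day 5 samples. The other measured macrophage and leukocyte markers all had a higher mean in GFP+ than in day 5 cells. Cd68 averaged 6.61 in GFP+ and 5.43 in day 5 cells, and Laptm5 averaged 4.77 and 3.98. The means of Fcer1g were 4.62 and 4.29, of Tyrobp 3.32 and 3.05, of Csf1r 3.94 and 3.74 and of Adgre1 2.42 and 2.37. The part of leukocytes in the Mmp9 level was not tested.

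Other metalloproteinases that changed at day 13 were Mmp11, Mmp23 and Mmp16. Mmp11 (Entrez Gene 17385), or stromelysin-3 of remodelling stroma, was 7.37, 7.15 and 7.02 in GFP+ and 7.40, 6.86 and 6.80 in GFP- cells, against 5.51, 5.62 and 5.34 at day 5, and rose in both (log2 changes 1.69 and 1.53, limma adjusted p = 1.32e-06 and 6.49e-06). Aortic cells, at 5.47, 4.93 and 5.18, lay 3.96-fold below GFP+ cells (-1.99, adjusted p = 1.96e-07), and below all day 0 samples (5.95 to 6.18). Mmp23 (Entrez Gene 26561), a membrane-anchored member without the usual hemopexin domain, was 6.05, 6.34 and 6.45 in GFP+ and 5.63, 5.69 and 5.70 in GFP- cells, against 4.04, 4.57 and 4.36 at day 5 (changes 1.96 and 1.35, adjusted p = 2.55e-07 and 2.13e-05). It was highest in aortic cells, at 6.92, 6.89 and 6.88, by 0.61 over GFP+ cells (adjusted p = 0.0104), which missed the threshold without the samples numbered 3 (0.50, adjusted p = 0.0518). Mmp16 (Entrez Gene 17389), a further membrane-type enzyme, varied with the sample number at day 13: it was 4.60, 5.88 and 5.75 in GFP+ and 3.23, 4.16 and 4.89 in GFP- samples 3, 5 and 6, against 3.69, 4.11 and 3.35 at day 5. It rose in GFP+ cells (1.69, SE 0.394, adjusted p = 0.00302), and in GFP- cells the change was 0.38 (adjusted p = 0.61). Without the samples numbered 3 these changes were 2.10 (adjusted p = 6.36e-05) and 0.81 (adjusted p = 0.0569), and aortic cells were called lower than GFP+ cells (-1.10, adjusted p = 0.00908). At day 5 against day 0 Mmp16 changed by 0.93, not called in the fit of all samples (adjusted p = 0.0954). A limma fit of these 2 groups alone called that change higher (adjusted p = 0.022). Smaller rises against day 5 were called for Mmp28 in GFP+ (0.96) and GFP- cells (0.77) and for Mmp19 in GFP+ cells (0.56, and 0.41 with adjusted p = 0.107 without the samples numbered 3).

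Of further members held at the membrane, Mmp15 rose at day 5 against day 0, and Mmp25 and Mmp17 fell. Mmp15 (Entrez Gene 17388), a transmembrane enzyme related to MMP14, was 5.97, 6.49 and 6.51 at day 5, against 4.28, 4.45 and 4.55 at day 0, a log2 change of 1.90 (3.72-fold, SE 0.183, limma adjusted p = 8.03e-07). It was the single member called lower in both day 13 sorts, at 5.18, 4.88 and 4.64 in GFP+ cells (-1.42, adjusted p = 1.36e-05) and 5.73, 5.47 and 5.34 in GFP- cells (-0.81, adjusted p = 0.00299), all below the lowest day 5 sample. Mmp25 (Entrez Gene 240047), a lipid-anchored enzyme of leukocytes, was 4.01, 3.80 and 3.90 at day 5, against 5.39, 4.67 and 4.84 at day 0 (-1.07, adjusted p = 8.56e-05), and it stayed between 3.54 and 3.91 in all later and aortic samples. Mmp17 (Entrez Gene 23948), the other lipid-anchored member, known from vascular smooth muscle in mice, was 3.87, 3.94 and 3.77 at day 5, against 4.91, 4.87 and 5.05 at day 0 (-1.08, adjusted p = 2.01e-05). In day 13 cells it stayed near the day 5 level (0.20 in GFP+ and -0.03 in GFP-, not called). Aortic cells held 6.15, 5.95 and 5.78 of Mmp17, against 4.22, 3.89 and 4.07 in GFP+ cells, a 3.73-fold difference (log2 change 1.90, SE 0.141, adjusted p = 2.95e-08).

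The 10 neighbouring Mmp genes of the cluster, which include the collagenases and stromelysins, differed little within the culture, apart from Mmp3. In the fit of all samples none of the 10 was called in any of the 4 comparisons between cultured groups, and their cultured group means lay between 1.27 (Mmp1a in GFP- cells) and 3.40 (Mmp10 in GFP+ cells). Mmp3 was 2.50, 2.63 and 2.47 at day 5, against 3.40, 3.51 and 2.77 at day 0, with every day 5 sample below day 0. That change of -0.69 was not called in the fit of all samples (SE 0.654, adjusted p = 0.524) and was called lower in a fit of these 2 groups alone (SE 0.185, adjusted p = 0.0191), in which the widely spread aortic values take no part. Mmp1a and Mmp1b are near copies of each other, and their signals may not be separate. In aortic against day 13 GFP+ cells, 4 of the 10 were higher. Mmp3 (Entrez Gene 17392), stromelysin-1, was 2.83, 6.53 and 6.45 in aortic samples 1, 2 and 3, against 2.74, 2.24 and 2.67 in GFP+ cells (log2 change 2.72, SE 0.654, limma adjusted p = 0.00371). Samples 2 and 3 were high, and sample 1 lay 0.09 above the highest GFP+ sample. Without sample 1 the change was 3.94, without sample 2 it was 2.09 and without sample 3 it was 2.13. Mmp12 (Entrez Gene 17381), macrophage elastase, was 3.29, 4.74 and 3.34 in aortic cells, against 2.81, 3.24 and 3.04 in GFP+ cells (0.76, adjusted p = 0.0456), and here sample 2 stood apart. Mmp27 (0.82, adjusted p = 0.0102) and Mmp13 (0.34, adjusted p = 0.0317) were the other members called. Without both day 13 samples numbered 3, Mmp12 (0.65, adjusted p = 0.141) and Mmp13 (0.35, adjusted p = 0.0512) were not called.

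The aortic samples also differed in markers of other cells. The fibroblast list (Pdgfra, Dpt, Lum, Dcn, Col1a1 and Pi16, all 6 measured) had a mean log2 level of 7.98, 9.09 and 8.81 in aortic samples 1, 2 and 3, lowest in the sample where Mmp3 was low, with a summed linear level of 2284 to 4276, against 2016 to 3249 in GFP+ cells. Of these 6 markers, 3 were higher and 1 was lower in aortic than in GFP+ cells. The adventitial fibroblast gene Dpt was 9.16, 10.11 and 9.62 in aortic samples, against 3.70, 2.99 and 3.32 in GFP+ samples. Col1a1 went the other way, at 9.33, 9.61 and 9.48 in aortic samples, against 10.83, 11.23 and 11.41 in GFP+ samples. Of the 7 measured macrophage and leukocyte markers 6 were higher in aortic than in GFP+ cells (summed level 214 to 370, against 176 to 195), with the mean log2 level highest in sample 2, at 5.05, against 4.56 and 4.75 in samples 1 and 3. Of 6 endothelial markers 5 were higher in aortic cells (673 to 769, against 147 to 207). The part of these cells in the aortic levels of Mmp3, Mmp12, Mmp27 and Timp1 was not tested. More or fewer cells of a type and more or less RNA per cell cannot be told apart in these bulk samples.

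**Figure D3:**
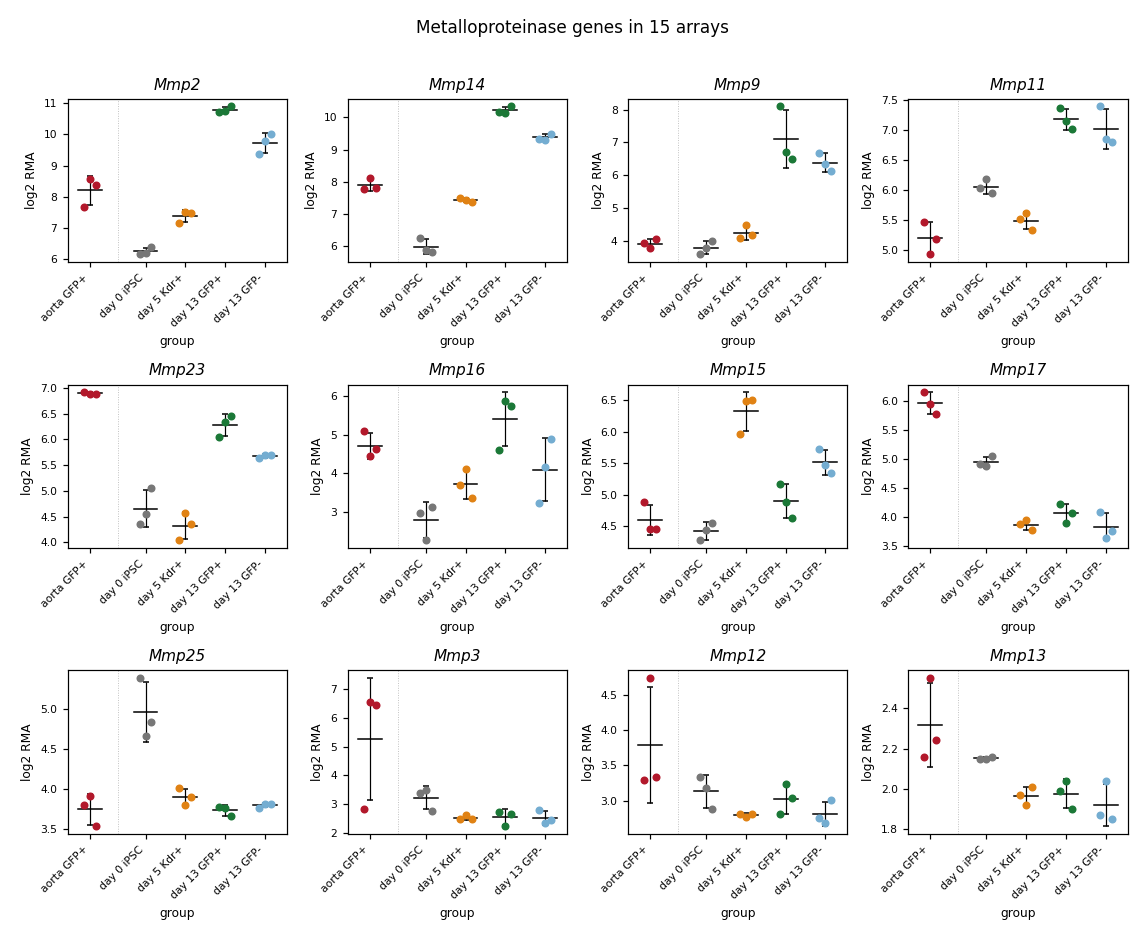
Log2 RMA value of 12 metalloproteinase genes in the 15 samples, with a point per sample, a bar at the group mean and whiskers of 1 SD (n = 3), and the aortic group left of the dotted line. Mmp2, Mmp14 and Mmp9 are highest in day 13 GFP+ cells, Mmp17 and Mmp23 in aortic cells, and Mmp3 is high in 2 of the 3 aortic samples. Each panel has its own axis range.

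Among the ADAMTS genes, those known to cut the proteoglycans versican and aggrecan differed in when they were high: Adamts1, Adamts4, Adamts5 and Adamts15 rose in day 13 GFP+ cells and were higher still in aortic cells, Adamts8 was called in the aorta only, and Adamts9 rose at day 5. Adamts1 (Entrez Gene 11504) was 4.45, 4.30 and 4.47 at day 0, 4.30, 4.31 and 3.88 at day 5, 7.84, 7.85 and 7.64 in GFP+ cells and 7.40, 7.46 and 7.56 in GFP- cells. It rose 12.2-fold in GFP+ (log2 change 3.61, SE 0.143, limma adjusted p = 7.4e-11) and 9.92-fold in GFP- against day 5 cells (3.31, adjusted p = 3.65e-10). In aortic cells it was 9.86, 9.69 and 9.43, 3.69-fold above GFP+ cells (1.88, adjusted p = 3.9e-08). Adamts5 (Entrez Gene 23794), its neighbour on the chromosome with 0 protein-coding genes between them and a main aggrecanase of mouse cartilage, was 2.99, 3.11 and 2.79 at day 0, 3.01, 2.88 and 3.00 at day 5, 6.09, 6.69 and 6.47 in GFP+ cells and 4.61, 5.51 and 5.58 in GFP- cells. Its rise against day 5 was 10.9-fold in GFP+ (3.45, SE 0.226, adjusted p = 1.11e-08) and 4.82-fold in GFP- cells (2.27, adjusted p = 1.75e-06), and aortic cells held 7.19, 7.25 and 7.67 (0.95 above GFP+, adjusted p = 0.00337). Neither neighbour was called between day 5 and day 0, both were highest in aortic and next highest in GFP+ cells, and the day 13 sorts overlapped in neither.

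A second neighbouring pair, Adamts15 and Adamts8, did not move together in culture. Adamts15 (Entrez Gene 235130) was 5.57, 5.56 and 5.72 in GFP+ and 4.93, 4.97 and 4.97 in GFP- cells, against 3.94, 3.89 and 3.81 at day 5, and rose in both (1.74 and 1.08, limma adjusted p = 1.67e-07 and 3.89e-05), and aortic cells, at 6.12, 6.23 and 6.39, lay 0.63 above GFP+ cells (adjusted p = 0.00293). Adamts8 (Entrez Gene 30806), known as an angiogenesis-inhibiting protease, was 6.32, 5.98 and 5.94 in aortic cells, against 3.31, 3.13 and 3.21 in GFP+ cells, a 7.28-fold difference (2.86, SE 0.142, adjusted p = 2.96e-10). All 12 cultured samples lay between 2.88 and 3.54, and no comparison between them was called. Adamts4 (Entrez Gene 240913), the other aggrecanase of this group, was 6.89, 8.15 and 6.33 in aortic cells, against 6.31, 5.62 and 5.26 in GFP+ cells (1.39, SE 0.367, adjusted p = 0.007), with sample 2 the highest and sample 3 only 0.02 above the highest GFP+ sample. GFP+ cells in turn lay above day 5 (3.96, 3.58 and 3.86) by 1.93 (adjusted p = 0.000579). Adamts9 (Entrez Gene 101401), a broadly expressed versicanase, rose early, to 7.44, 7.47 and 7.40 at day 5, against 6.05, 5.83 and 5.89 at day 0 (1.51, SE 0.132, adjusted p = 2.8e-07), and rose a further 0.47 in GFP+ cells (adjusted p = 0.0113), which was 0.33 without the samples numbered 3 (adjusted p = 0.0588). Adamts20 varied with the day 13 sample number, at 3.73, 5.47 and 5.82 in GFP+ samples 3, 5 and 6. Its change in GFP+ against day 5 cells was 1.21 (adjusted p = 0.0342), and 1.85 without the samples numbered 3 (adjusted p = 9.63e-07). At day 5 against day 0 Adamts20 changed by 0.56, not called in the fit of all samples (adjusted p = 0.388). A limma fit of these 2 groups alone called that change higher (adjusted p = 0.00286).

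The procollagen N-proteinases, which remove the amino-terminal propeptide of fibrillar collagens, took 3 separate courses. Adamts2 (Entrez Gene 216725), mutated in the dermatosparaxis type of Ehlers-Danlos syndrome, was 5.34, 6.06 and 5.99 at day 5, against 4.61, 4.34 and 5.10 at day 0 (1.11, SE 0.206, limma adjusted p = 0.000557). It was 8.19, 7.99 and 8.21 in GFP+ cells, 5.06-fold above day 5 (2.34, adjusted p = 2.55e-07), and 6.36, 6.50 and 6.64 in GFP- cells (0.70, adjusted p = 0.0173). The aortic samples, at 7.86, 8.24 and 8.18, overlapped with the GFP+ samples (-0.04, adjusted p = 0.899). Adamts3 (Entrez Gene 330119), the closest relative, known to process VEGF-C in lymphatic development, was 6.47, 6.40 and 6.30 at day 5, against 2.91, 2.97 and 2.83 at day 0. That 11.2-fold rise (3.49, SE 0.212, adjusted p = 5.01e-09) was the largest increase of any member at day 5. It was 6.28, 6.17 and 6.46 in GFP+ and 7.81, 6.80 and 6.88 in GFP- cells, so that the GFP- sort rose above day 5 (0.77, adjusted p = 0.0118, and 0.45 with adjusted p = 0.0388 without the samples numbered 3). Aortic cells, at 3.28, 3.48 and 3.80, lay 6.88-fold below GFP+ cells (-2.78, adjusted p = 4.03e-08). Adamts14 (Entrez Gene 237360) was lower at day 5, at 4.60, 4.34 and 4.66, against 5.57, 5.60 and 5.55 at day 0 (-1.04, SE 0.122, adjusted p = 6.77e-06), and rose by 0.59 in GFP+ and 0.46 in GFP- cells against day 5 (adjusted p = 0.00115 and 0.0102).

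Of the microfibril-associated pair, Adamts6 and Adamts10, both rose at day 13. Adamts6 (Entrez Gene 108154) was 7.34, 8.52 and 8.70 in GFP+ and 6.40, 7.69 and 7.78 in GFP- cells, against 4.45, 4.16 and 4.39 at day 5. Sample 3 was more than 1 below samples 5 and 6 in both sorts, and without both samples numbered 3 the change against day 5 was 4.28 in GFP+ cells (adjusted p = 1.77e-10) and 3.41 in GFP- cells (adjusted p = 1.73e-09). The rise was 14.5-fold in GFP+ (3.86, SE 0.34, limma adjusted p = 2.63e-07) and 7.79-fold in GFP- cells (2.96, adjusted p = 7.23e-06), and aortic cells, at 6.41, 6.39 and 6.67, lay 3.25-fold below GFP+ cells (-1.70, adjusted p = 0.000876). At day 5 against day 0 Adamts6 changed by 0.83, not called in the fit of all samples (adjusted p = 0.0852). A limma fit of these 2 groups alone called that change higher (adjusted p = 0.000811). Adamts10 (Entrez Gene 224697), mutated in Weill-Marchesani syndrome, was 7.07, 7.16 and 7.40 in GFP+ and 6.58, 6.68 and 6.66 in GFP- cells, against 4.83, 4.81 and 4.95 at day 5 (2.34 and 1.77, adjusted p = 6.21e-09 and 2.23e-07). Aortic cells, at 6.54, 6.58 and 6.45, lay 0.68 below GFP+ cells (adjusted p = 0.00135). Adamts16 (Entrez Gene 271127), known from genetic studies of blood pressure in rats, was high only in the day 13 groups: 6.82, 6.31 and 6.39 in GFP+ and 6.78, 6.49 and 6.34 in GFP- cells, against 3.98, 3.38 and 3.78 at day 5 (2.79 and 2.82, adjusted p = 1.21e-07 and 2.23e-07). In aortic cells it was 3.64, 4.12 and 3.59, 6.64-fold below GFP+ cells (-2.73, adjusted p = 1.2e-07) and overlapping with the day 5 samples. Adamts7 and Adamts12, which are known to cut the cartilage protein COMP, differed in the aorta: Adamts7 was lower there than in GFP+ cells (-1.53, adjusted p = 0.00111), and Adamts12 differed by 0.74 (adjusted p = 0.0536, not called). Adamts17 and Adamts18 rose at day 5 against day 0 (0.73 and 0.61, adjusted p = 0.0153 and 0.0219) and were lower in aortic than in GFP+ cells (-0.57 and -1.09, adjusted p = 0.0469 and 0.000232). The aortic difference of Adamts17 was not called without both day 13 samples numbered 3 (-0.49, adjusted p = 0.131). Adamts13, the plasma protease of von Willebrand factor, and Adamts19 were called in no comparison.

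**Figure D4:**
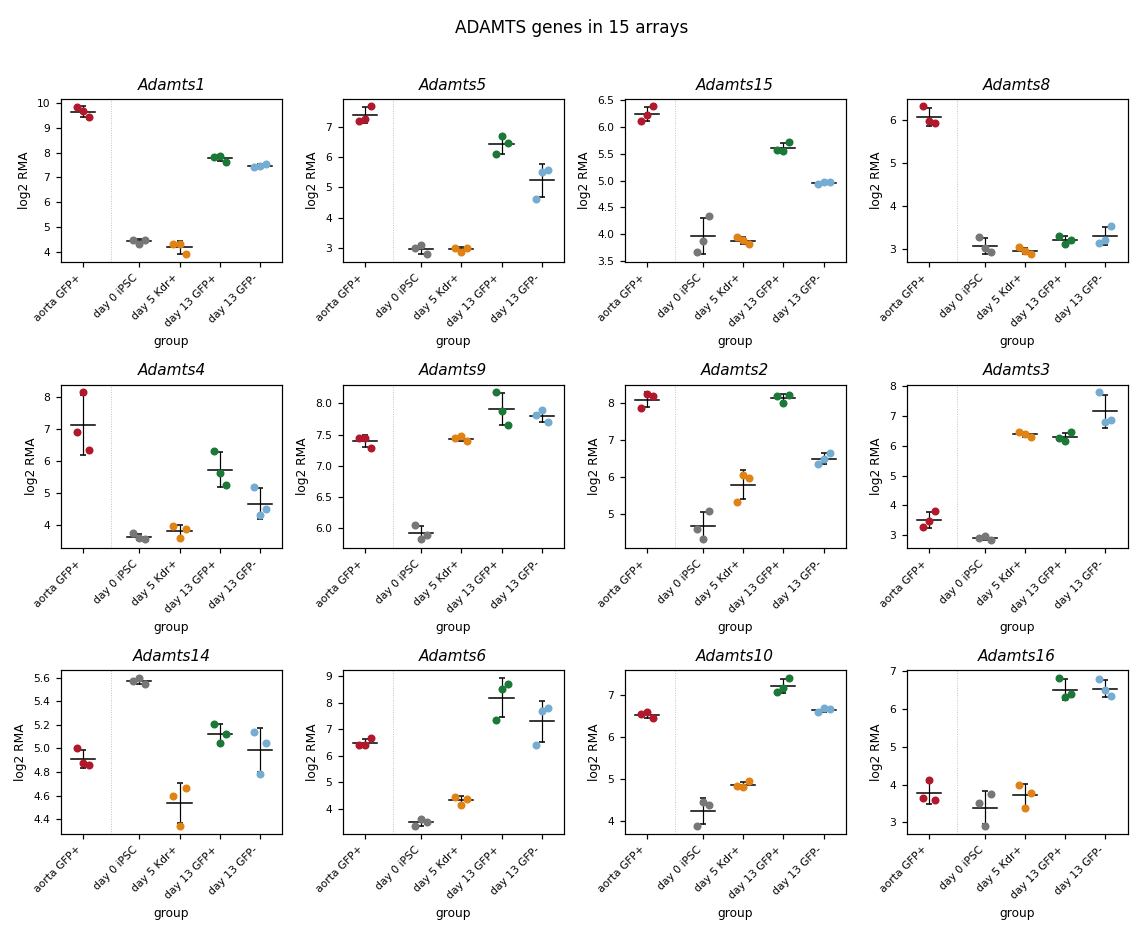
Log2 RMA value of 12 ADAMTS genes in the 15 samples, with a point per sample, a bar at the group mean and whiskers of 1 SD (n = 3), and the aortic group left of the dotted line. Adamts8 is at 5.94 or above in aortic samples and at 3.54 or below in culture, and Adamts16 is high in both day 13 groups alone. Each panel has its own axis range.

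The direct comparison of the day 13 sorts asks which members go with reporter activity, although Acta2 itself was not called in it. Higher in GFP+ cells were Adamts2 (log2 change 1.63, SE 0.206, limma adjusted p = 0.000224), Timp3 (1.38, SE 0.237, adjusted p = 0.00287), Timp1 (1.24, SE 0.278, adjusted p = 0.0167), Adamts5 (1.18, SE 0.226, adjusted p = 0.00614) and Mmp2 (1.07, SE 0.205, adjusted p = 0.00637). Timp2 (0.89), Mmp14 (0.84), Adamts18 (0.75), Adamts15 (0.66) and Adamts10 (0.57) were higher by less, and Adamts3 was lower (-0.86, adjusted p = 0.0296). Each of these 11 differences had the same sign in all 3 pairs of equal sample number, and the GFP+ and GFP- samples did not overlap. This adds no separate support, because the 11 were picked by their difference in the same samples. Called or not, 18 of the 46 members and 4905 of 25206 probe sets did not overlap between the sorts. With the sample number as a block over the 6 day 13 samples, 17 members were higher and 2 lower (19 in all, against 11), where 2130 probe sets were called in all, against 1142. The block called Adamts4 (1.06, adjusted p = 0.00347), Mmp16 (1.32, adjusted p = 0.00336), Adamts6 (0.89, adjusted p = 0.00294), Adamts20, Adamts12, Adamts7 and Mmp23 as higher and Mmp15 (-0.61, adjusted p = 0.0134) as lower. With the block over all 12 cultured samples 14 members were called, and Mmp16 (adjusted p = 0.0709), Adamts6 (0.107), Adamts20 (0.27), Adamts12 (0.367) and Mmp15 (0.0953) were not among them. Mmp9, at 0.72, was called in neither fit (adjusted p = 0.256, and 0.0759 with the block).

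**Figure D5:**
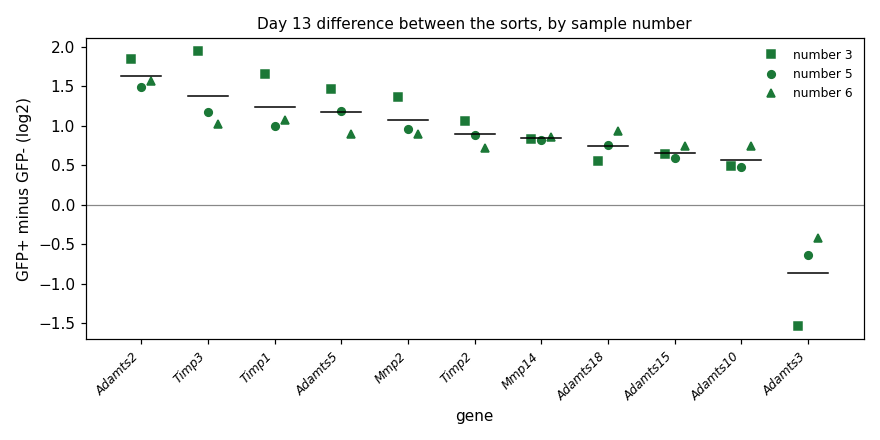
Log2 difference (day 13 GFP+ minus GFP-) of the 11 members called in that comparison (x axis), with a point for each pair of samples of equal number and a bar at the mean. The 3 points of a gene lie on the same side of 0, from 1.49 to 1.84 for Adamts2 and from -1.53 to -0.42 for Adamts3.

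For some of these genes the samples numbered 3 weighed on the size of the difference. Timp1 differed by 1.65 in pair 3, against 1.00 and 1.07 in pairs 5 and 6, and without both samples numbered 3 the difference was 1.04 with adjusted p = 0.134. Over the 16 alternatives tried for this value the adjusted p ran from 0.00201 (a block over the 12 cultured samples) to 1 (a test against a change of 1). Adamts3 differed by -1.53 in pair 3 and by -0.63 and -0.42 in the others. Without both samples numbered 3, 10 members were higher and 0 lower. Timp1, Adamts3 (-0.52, adjusted p = 0.118), Adamts10 (0.61, adjusted p = 0.0804) and Adamts15 (0.67, adjusted p = 0.0692) were then not called, while Adamts20 (1.03), Adamts6 (0.87) and Mmp16 (1.29) were called higher. In GFP- against day 5 cells Adamts20 (0.82, adjusted p = 0.00158), Adamts12 (0.80, adjusted p = 0.00857) and Adamts9 (0.37, adjusted p = 0.0427) were called higher without the samples numbered 3, but not in the fit of all samples. Without GFP+ sample 6, 7 members were called in place of 11. Markers of other cells differed between the sorts as well: of 6 visceral endoderm markers 5 were lower in GFP+ cells (summed linear level 82 to 90, against 315 to 474 in GFP- cells), and of 6 endothelial markers 3 were lower (147 to 207, against 260 to 339). Of 6 early mesoderm markers 2 were lower (137 to 241, against 260 to 562), namely Mixl1 (-1.63) and Eomes (-2.43). None of the 6 fibroblast markers was called, and their summed level was 2016 to 3249 in GFP+ cells, against 731 to 1889 in GFP- cells. Their part in the differences of the members was not tested.

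Related genes outside the 3 families were counted from lists, whose medians stand beside those of all probe sets given above. In GFP+ cells against day 5, 9 of 10 ADAM proteases rose and 0 fell (median 1.55), led by Adam12 (3.08), Adam23 (2.09) and the sheddase Adam10 (1.96, adjusted p = 1.8e-07), and in aortic against GFP+ cells 6 of 10 were lower and 1 higher, with Adam19, Adam12 and Adam23 each at -2.95. Of the 6 ADAMTS-like and papilin genes, which resemble ADAMTS proteins without a protease domain, 4 rose in GFP+ and 3 in GFP- against day 5 cells (medians 1.22 and 0.70), led by Adamtsl2 (3.31 and 2.28) and Adamtsl3 (2.99 and 2.07), and Adamtsl5 was higher in the aorta (2.51, adjusted p = 9.52e-11). The plasminogen system, whose product plasmin can activate pro-MMPs, had 5 of 8 genes higher in GFP+ and 4 in GFP- against day 5 cells (medians 1.41 and 1.08). Among them were the inhibitor Serpine2 (3.21 in GFP+) and the activator Plat (2.81 in GFP+), while plasminogen itself, Plg, changed by 0.01 in each sort (adjusted p = 0.968 and 0.972). At day 5 against day 0, 3 of the 8 had fallen and 0 risen.

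Activators, inhibitors and receptors that clear the enzymes were mixed. Furin, which activates membrane-type MMPs and ADAMTS enzymes inside the cell, rose in GFP+ (2.38) and GFP- cells (2.04) and was lower in aortic than in GFP+ cells (-1.73, adjusted p = 1.09e-06). Over the 10 genes of this list, 4 rose and 1 fell in GFP+ and 6 rose and 1 fell in GFP- against day 5 cells (medians 0.75 and 0.69), and 3 rose and 5 fell at day 5 against day 0, with A2m, a broad protease inhibitor, at -3.76 and Pcsk5 at 2.77. The procollagen proteinase Bmp1 and its enhancer Pcolce rose in GFP+ cells (3.14 and 4.22) as in GFP- cells (2.59 and 3.42), whereas Pcolce2 fell (-1.99 and -1.84) and was higher in aortic than in GFP+ cells (3.56, limma adjusted p = 6.9e-11). Of these 5 genes 2 rose and 1 fell in each day 13 sort (medians 0.39 and 0.47). Of the 4 substrate proteoglycans, 1 rose and 2 fell at day 5 against day 0 (median -0.67), and 2 rose in GFP+ against day 5 cells (median 0.56). Acan (aggrecan, -1.24, adjusted p = 2.22e-05) and Ncan (neurocan, -1.74, adjusted p = 3.89e-07) fell at day 5. Vcan (versican) was higher at day 5 (2.44), rose again in GFP+ cells (1.44) and was lower in aortic than in GFP+ cells (-2.46, adjusted p = 1.13e-07), and Acan rose in GFP+ cells (1.25). All 7 AP-1 genes rose in each day 13 sort against day 5 (medians 1.85 and 1.60), 6 of 7 fell at day 5 against day 0 (median -1.18), and all 7 were higher in aortic than in GFP+ cells (median 2.03). Fos, for one, was 11.26, 11.14 and 10.92 in aortic samples, against 6.39, 7.94 and 7.71 in GFP+ samples.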

How the data were processed

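Expression in total RNA of 15 samples was measured on Affymetrix Mouse Gene 2.0 ST arrays. The deposited values are on a log2 scale, read from their range, and the submitters' processing notes name RMA, affy 1.36.1 and R 2.15.1. RMA corrects background, normalizes by quantiles and summarises by median polish, so a rise in many genes is measured against the other genes. The sources used here name no genome build for the probe sets. Of 25206 probe sets, 23740 were named by Entrez ID through RefSeq, or through the platform table where RefSeq held none. No pair of samples was identical (0 pairs).

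All 15 samples were fitted with a mean per group in limma 3.58.1 (R 4.3.3, 10 residual and 5.09 prior degrees of freedom), unfiltered, with Benjamini-Hochberg adjustment over all probe sets within each of 5 comparisons. Comparisons that share day 5 or day 13 GFP+ samples are not independent. Equal sample numbers correlated at day 13 (0.397 to 0.597) and between -0.091 and 0.079 elsewhere, so they were taken to pair the day 13 samples only. Unequal numbers 5 and 6 correlated across the day 13 sorts at 0.278 and 0.345. The pairing of numbers 5 and 6 thus rests on a small margin. Genes named with values were the TIMPs and, per comparison, up to 8 called members in each direction with a log2 change of at least 1. Members named outside this rule were chosen after their values were seen. The members, lists and tests were chosen with earlier results of these data known. Of the 46 members, 23 had a mean level above that of the median probe set. Promoter sequences are from RefSeq (GRCm38.p6), which matched 32 members.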

Additional observations from a re-analysis of the deposited data

Results flagged for a closer look

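For a pair of members the change against day 5 was called in 1 day 13 sort, was small, of opposite sign and not called in the other, and the direct test between the sorts was called. Adamts18 changed by 0.65 in GFP+ cells (limma adjusted p = 0.0132) and by -0.10 in GFP- cells (adjusted p = 0.809), and the sorts differed by 0.75 (adjusted p = 0.0314, higher in GFP+ in 3 of 3 pairs). Adamts3 changed by -0.09 in GFP+ cells (adjusted p = 0.856) and by 0.77 in GFP- cells (adjusted p = 0.0118), and the sorts differed by -0.86 (adjusted p = 0.0296, higher in GFP+ in 0 of 3 pairs). Without both day 13 samples numbered 3, the difference between the sorts was -0.52 for Adamts3 (adjusted p = 0.118, not called) and 0.85 for Adamts18 (adjusted p = 0.00705), whose change in GFP- cells was then 0.04 (adjusted p = 0.909).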

How the results depend on the processing

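Counts of members called stayed within 1.5 times of the reported ones under the alternative scalings, variance moderation, a filter on low levels and, in 4 of the 5 comparisons, a fit of only the 2 groups compared. The filter on low levels moved the split of the aortic comparison, however, to 7 members higher and 12 lower, against 13 and 14 without it. A test against a log2 change of 1 left 4 members (of 1200 probe sets called) at day 5 against day 0, 15 (of 1589) in GFP+ and 10 (of 829) in GFP- against day 5, 0 (of 31) between the sorts, where the plain limma fit called 11 and the paired one 19, and 11 (of 1716) in the aorta. Between the sorts, a fit of only these groups called 7 members and 459 probe sets, and the replicate block over the 6 day 13 samples 19 and 2130. The block over the 12 cultured samples called 14 there, and 18, 26 and 23 in the other comparisons of cultured groups. Leaving out each sample in turn gave 14 to 17, 22 to 24, 18 to 19, 7 to 14 and 24 to 27 members, and 6143 to 6797, 6895 to 7334, 5531 to 6731, 653 to 1111 and 7897 to 9590 probe sets, in the order of comparisons above. Between the sorts, 653 probe sets were called without GFP+ sample 6 and 729 without GFP- sample 5. No paired analysis was made for the aorta, because the labels link its samples to no sample of the culture. Of 57 named values, 34 kept their direction and side of the threshold in all alternatives. The change of Timp4 at day 5 against day 0 (-0.09, not called) was 0.00 after median centring and ran from -0.18 to 0.03 (without day 0 sample 6) when samples were left out. Timp1 between the sorts was not called without GFP+ sample 3 (1.06, adjusted p = 0.0632) or GFP- sample 5 (1.23, 0.0567), and Adamts5 was not in the fit of only these groups (0.0985); the cause was not tested. Scaling shifted sample medians by up to 0.107 (median centring, repeated quantile normalization) or 0.151 (cyclic loess).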
